A study of Mus musculus with 3 samples.

Results

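The genes described here encode the protein serine/threonine phosphatases of the PPP family and the proteins named as their regulatory subunits and inhibitors, as expressed in mpkDCT4a cells. They were chosen by name, as protein-coding genes whose GENCODE M21 symbol starts with Ppp, a family number from 1 to 6, and c for a catalytic or r for a regulatory subunit. A gene whose symbol also matches was left out by the same rule. 74 genes were taken of the 55487 in the table, of which 21974 were protein-coding. Of the 74, 11 encode catalytic subunits, 24 encode the other subunits of PP2A, calcineurin, PP4 and PP6, and 39 encode regulators of PP1.

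The PPP phosphatases take phosphate groups off serine and threonine and so reverse the work of protein kinases. A small set of catalytic subunits acts on many substrates because each joins a large choice of regulatory subunits, which set where the enzyme goes and which substrates it acts on, and some of which block it. In the distal convoluted tubule the sodium chloride cotransporter is active when phosphorylated, and calcineurin, PP1 and PP4 have each been linked to the removal of that phosphate.

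RNA was sequenced from mpkDCT4a, an immortalised mouse kidney line labelled as distal convoluted tubule. The design holds 1 group of 3 libraries from unmodified wild-type cells, with no treated or mutant group to set against it. All cells were grown at 37 °C and 5% CO2 in medium with 2% fetal calf serum, sodium selenate (90 nM), transferrin (5 µg/ml), dexamethasone (50 nM), triiodothyronine (1 nM), epidermal growth factor (10 ng/ml), insulin (5 µg/ml) and glucose (20 mM), and glutamine. Dexamethasone, insulin and the growth factor were thus present in every library. The questions that can be asked are which phosphatase genes the cells used, at what level, and how closely the libraries agreed.

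Replicates 1, 2 and 3 had totals of 436983, 482418 and 443192 counts. Levels are given in counts-per-million (CPM), and 1 count equals 2.31, 2.07 and 2.24 CPM in them. A gene with 0 counts in all 3 may have had up to 2.20 CPM, the value of 3 counts over the summed libraries, and this limit covers counting error only. Of 12 marker genes of the distal convoluted tubule 5 were detected, at the limit given below. The kinase gene Wnk4 was the highest with 24, 16 and 21 counts, while Cnnm2 had 27 in all, Trpm6 12, Kcnj10 9 and Egf 3. The other 7 of the 12 had no count, including the defining cotransporter gene Slc12a3 and the calcium-binding protein gene Pvalb, so the label is borne out only in part. Of 14 marker genes of other kidney, vessel, blood and fibroblast cells 12 had no count, while Col1a1 had 3, 5 and 2 counts and Pdgfrb 1, 2 and 0. These 2 fibroblast markers were detected by the same limit. In whole-culture RNA a gene that a few cells express and a gene that all cells express weakly cannot be told apart.

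Most of the phosphatase genes were expressed. A gene is called detected here at a mean of at least 1 CPM, and 54 of the 74 genes (73.0%) reached it, against 50.6% of all protein-coding genes. No count was found for 18 of them (24.3%), against 46% of all protein-coding genes, and 2 more had a single count. Ppp1r14a passed the limit with 2 counts in all. A mean of 100 CPM was reached by 25 of the 74 genes (33.8%), against 12.2% of all protein-coding genes. To compare genes with each other, counts were divided by the summed length of each gene's exons and scaled to transcripts-per-million (TPM). The median over all 74 genes was 36.8 TPM and over all protein-coding genes 1.51 TPM, while over detected genes alone the medians were 53.2 and 31.4 TPM. Together the 74 genes held 0.623% of all counts.

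The catalytic subunits come first. All 11 were detected, and PP1 held the largest share of their summed TPM. Ppp1ca, the alpha isoform of PP1 (ENSMUSG00000040385, GRCm38 chr19:4192065-4195420, plus strand), had 194, 282 and 202 counts in replicates 1, 2 and 3, a level of 723 ± 118 TPM (SD, n = 3). On the TPM scale it was the highest of all 74 genes in every library, while by counts Ppp2ca was higher in replicates 1 and 3. Replicate 2 lay above the other 2. Of the exon bases of Ppp1ca 16.5% lie opposite exons of Rad9a, which had 10, 18 and 12 counts, and the sources used here do not say whether counting kept the strands apart. Ppp1cb, the beta isoform that joins the myosin phosphatase, had 120, 155 and 134 counts (101 ± 8.59 TPM). Ppp1cc, the gamma isoform, had 21, 16 and 16 counts (42.0 ± 8.18 TPM). The order alpha, beta, gamma held with no overlap between libraries. Ppp1ca made up 83.3% ± 2.00 of PP1 catalytic TPM, and 59.2% with no division by length. The ratio of Ppp1ca to Ppp1cb was 7.18 per exon length and 1.66 by counts. Gm43312, which had no count, covers 17.5% of the exon bases of Ppp1cb on the same strand. Of the 50-base stretches of Ppp1cc, 40.0% also occur in other annotated transcripts, chiefly the processed copy Ppp1ccb, which had 0, 0 and 1 count, so the level of Ppp1cc is uncertain.

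PP2A was the next largest class, and its 2 catalytic genes lay side by side. Ppp2ca, the alpha isoform (ENSMUSG00000020349, chr11:52098681-52127778, plus strand), had 241, 213 and 204 counts (238 ± 27.3 TPM). Ppp2cb, the beta isoform (ENSMUSG00000009630, chr8:33599625-33619441, plus strand), had 41, 54 and 45 counts (257 ± 24.5 TPM). On the TPM scale the libraries of the 2 genes overlapped, with Ppp2ca higher in replicate 1 and Ppp2cb higher in replicates 2 and 3. By counts alone Ppp2ca had 4.70 times as many (95% counting interval 3.91 to 5.68), while per exon length the ratio was 0.922 (0.767 to 1.11). The annotated exons of Ppp2ca add up to 7490 bases and those of Ppp2cb to 1469, and by longest annotated transcript the ratio was 0.972, so the near equality appears only after division by length. Exons of other genes, chiefly 9430098F02Rik, which was not analysed here, lie opposite 41.3% of the exon bases of Ppp2ca.

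The coding sequences of both genes are 930 bases long and identical at 81.7% of positions, and the longest run without a difference is 25 bases. The stretches below show where the 2 genes differ. Each is 90 bases of the coding strand from the GRCm38 genome with GENCODE M21 exons, and capitals mark the bases that differ between the genes. They are the most alike of this length, at coding positions 160 to 249, with 77 identical and 13 differing bases.
Ppp2ca: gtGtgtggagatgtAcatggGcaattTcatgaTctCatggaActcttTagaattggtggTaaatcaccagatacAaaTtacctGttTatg
Ppp2cb: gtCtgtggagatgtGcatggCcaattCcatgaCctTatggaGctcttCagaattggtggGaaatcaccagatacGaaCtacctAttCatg
No 50-base stretch of Ppp2cb occurs in a transcript of another gene, so its count does not draw on reads of Ppp2ca of that length. Among the PP1 isoforms the coding sequences of Ppp1ca and Ppp1cc were identical at 78.0% of aligned bases, with a longest shared run of 44 bases, and those of Ppp1ca and Ppp1cb at 75.2%, with a run of 20.

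The remaining catalytic genes all lay below both PP2A genes on the TPM scale. Ppp6c, the catalytic subunit of PP6, had 57, 63 and 65 counts (113 ± 7.89 TPM), and Ppp4c, that of PP4, had 43, 34 and 37 (72.3 ± 11.5 TPM). Ppp5c, which carries its own regulatory domain on the same chain, had 17, 19 and 20 counts (48.3 ± 4.15 TPM). Calcineurin is the phosphatase switched on by calcium and calmodulin. Its beta isoform gene Ppp3cb had 71, 59 and 57 counts (57.6 ± 8.63 TPM), the alpha gene Ppp3ca 36, 38 and 29 (27.9 ± 3.23 TPM) and the gamma gene Ppp3cc 10, 8 and 10 (25.5 ± 4.25 TPM). Ppp3cb lay above the other 2 in every library, and Ppp3ca and Ppp3cc overlapped. By counts, and by longest transcript at 45.5 TPM for Ppp3ca and 23.8 TPM for Ppp3cc, Ppp3ca was the higher. The ratio of Ppp3cb to Ppp3cc was 2.26 per exon length and 4.35 by longest transcript.

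Set against each other per length, PP1 made up 50.7% ± 3.93 of catalytic TPM (SD, n = 3) and PP2A 29.1% ± 1.49. PP6 made up 6.63% ± 0.728, calcineurin 6.54% ± 1.03, PP4 4.27% ± 0.875 and PP5 2.84% ± 0.350. PP1 came first and PP2A second in every library. Dividing by the longest annotated transcript instead gave PP1 57.6% and PP2A 19.9%, and no division by length gave 43.5% and 30.6%, so the order of these 2 classes held under each. The order of the smaller 4 classes did not: calcineurin came next after PP2A, at 8.69% and 12.2%, under both. The ratio of PP2A to PP1 catalytic TPM was 0.578 ± 0.0717, or 0.347 by longest transcript.

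**Figure D1:**
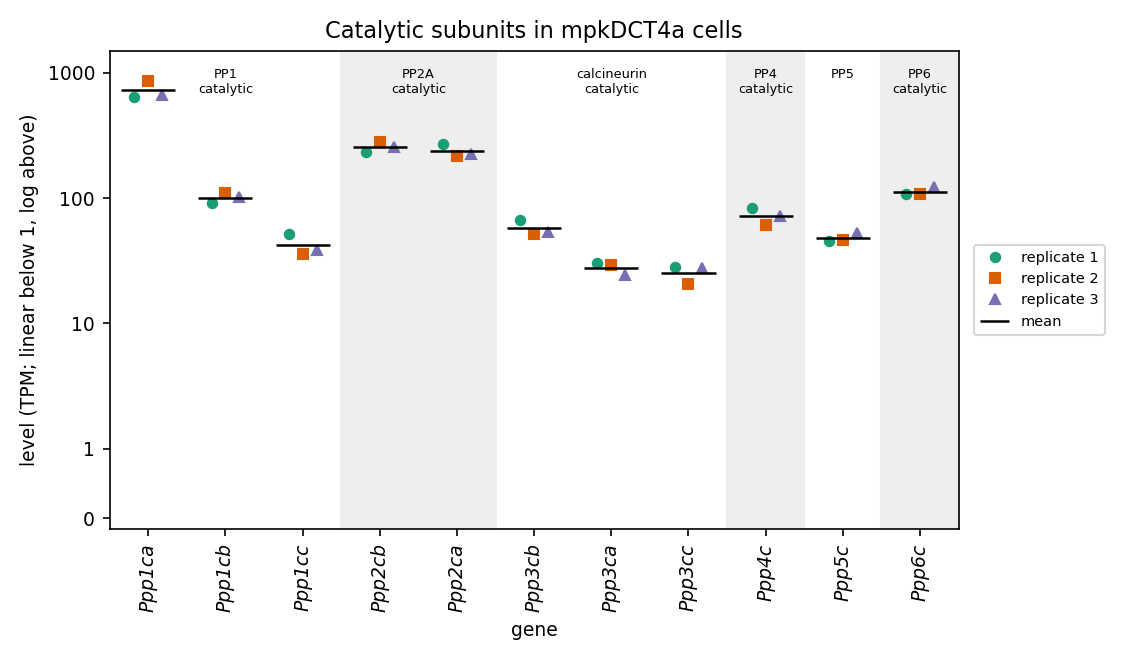
Level of the 11 catalytic subunit genes in TPM (vertical axis, linear below 1 and logarithmic above) by gene, grouped by enzyme class. Points are the 3 libraries and bars their mean; Ppp1ca stands above the rest in every library, Ppp2ca and Ppp2cb overlap, and the lowest single value is 20.6 TPM, for Ppp3cc in replicate 2.

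PP2A acts as a complex of the catalytic subunit, a scaffold and a targeting subunit. Scaffold TPM came mainly from Ppp2r1a, the alpha scaffold (ENSMUSG00000007564, chr17:20945311-20965916, plus strand), with 145, 167 and 154 counts (369 ± 11.6 TPM). Ppp2r1b, the beta scaffold, had 36, 41 and 27 counts (43.4 ± 7.54 TPM). Of its 50-base stretches 20.4% also occur, on either strand, in other transcripts, chiefly of Sik2. Exons of Sik2, which had 18, 34 and 27 counts, lie opposite 22.2% of the exon bases of Ppp2r1b. The ratio of Ppp2r1a to Ppp2r1b was 8.47 per exon length (95% counting interval 6.84 to 10.6). Ppp2r1a was higher in all 3 libraries. The summed scaffolds stood at 0.834 ± 0.0290 of the summed PP2A catalytic TPM, and at 1.18 by longest transcript, so which of the 2 was in excess depended on the length used.

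Among the PP2A targeting subunits of this set, the B56 family was the most abundant on the TPM scale. Its 5 genes were all detected and made up 69.9% ± 1.62 of the summed TPM of B56, B55 and B72-type genes. B55 made up 22.6% ± 1.37 and the calcium-binding B72 type 7.48% ± 0.356. The sum leaves out the striatin genes, which were followed among the PP2A partners. They were Strn at 74.3 TPM, Strn3 at 68.5 TPM and Strn4 at 40.1 TPM. Ppp2r5d, the delta gene of B56, had 121, 121 and 110 counts (280 ± 15.4 TPM) and was the second highest regulatory subunit of PP2A after the alpha scaffold. Ppp2r5b, with 51, 50 and 48 counts, stood at 120 ± 6.41 TPM, and Ppp2r5e, with 56, 70 and 50 counts, at 88.7 ± 11.4 TPM. Below them lay Ppp2r5c at 65.1 ± 4.87 TPM and Ppp2r5a, with 40, 50 and 60 counts, at 42.2 ± 8.79 TPM. Of the 50-base stretches of Ppp2r5a, 20.6% also occur in other transcripts. Neighbours in this order did not overlap in any library, but by longest transcript Ppp2r5c passed Ppp2r5e. The ratio of Ppp2r5a to Ppp2r5e likewise turned round, at 0.474 per exon length (95% counting interval 0.379 to 0.593) and 1.16 per longest transcript. The B56 sum was 3.10 ± 0.266 times the B55 sum.

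The B55 family, which among other tasks lets cells leave mitosis, was carried by 2 of its 4 genes. Ppp2r2a, the alpha gene, had 101, 116 and 92 counts (155 ± 11.8 TPM), and Ppp2r2d, the delta gene, 30, 31 and 21 (37.5 ± 6.91 TPM). The ratio of Ppp2r2a to Ppp2r2d was 4.13 per exon length (95% counting interval 3.23 to 5.34). Ppp2r2b, known mainly from brain, had 1 count in replicate 1 and none elsewhere, and Ppp2r2c, also a brain form, had none. All 3 B72-type genes were detected. Ppp2r3a had 54, 62 and 57 counts (37.5 ± 1.09 TPM), Ppp2r3c 10, 17 and 10 (16.7 ± 4.59 TPM) and Ppp2r3d 7, 5 and 4 (9.56 ± 2.95 TPM). Of the 50-base stretches of Ppp2r3c, 31.0% also occur in other transcripts.

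Calcineurin needs a calcium-binding B subunit beside its catalytic one, and only 1 of the 2 genes for it gave counts. Ppp3r1, the widely used B subunit (ENSMUSG00000033953, chr11:17159263-17200375, plus strand), had 70, 48 and 56 counts (147 ± 33.7 TPM). Its exons overlap those of Wdr92 on the same strand over 14.3% of their bases, and Wdr92 had 8, 12 and 10 counts. Ppp3r2, the form known from testis (ENSMUSG00000028310, chr4:49678747-49682024, minus strand), had 0 counts in every library. Set against 3 counts over the 3 libraries, Ppp3r1 was 58.0-fold higher in counts and 54.4-fold per exon length, with its own counting error not covered. Summed B-subunit TPM was 1.31 ± 0.164 times summed catalytic TPM, and 0.743 times by longest transcript, so its side of equality again depended on length.

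The start regions of these 2 genes differ in base composition. Each sequence below runs 5′ to 3′ along the gene's strand from 250 bases before to 50 bases after the RefSeq start, in GRCm38.p6. Capitals mark CG steps (CpG), which cluster in the promoters of many widely used genes.
Ppp3r1, chr11:17159048-17159347, plus strand: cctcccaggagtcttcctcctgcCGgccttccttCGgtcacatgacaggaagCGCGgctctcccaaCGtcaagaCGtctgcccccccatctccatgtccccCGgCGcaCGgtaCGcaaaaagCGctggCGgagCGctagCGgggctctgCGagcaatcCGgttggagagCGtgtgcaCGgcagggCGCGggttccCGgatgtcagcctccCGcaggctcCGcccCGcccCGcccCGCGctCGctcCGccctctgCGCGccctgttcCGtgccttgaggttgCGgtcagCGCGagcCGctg
Ppp3r2, chr4:49681934-49682233, minus strand: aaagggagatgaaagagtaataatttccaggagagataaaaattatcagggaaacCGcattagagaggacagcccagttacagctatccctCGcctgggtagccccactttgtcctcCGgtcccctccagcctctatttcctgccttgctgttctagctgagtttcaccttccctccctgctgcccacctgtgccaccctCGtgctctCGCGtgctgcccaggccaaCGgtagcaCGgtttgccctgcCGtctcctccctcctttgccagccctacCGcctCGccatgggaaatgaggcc
The expressed Ppp3r1 holds 36 CpG steps in these bases and the gene without counts, Ppp3r2, holds 11.

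Of the regulatory subunit genes of PP4 4 of 5 were detected, and of those of PP6 all 3. For PP4, Ppp4r1 had 96, 110 and 104 counts (154 ± 5.81 TPM), Ppp4r3b 69, 75 and 72 (103 ± 2.27 TPM), Ppp4r2 49, 54 and 58 (63.7 ± 5.93 TPM) and Ppp4r3a 73, 65 and 48 (38.2 ± 8.03 TPM). Ppp4r3a and Ppp4r3b encode related subunits that bind substrates, and their ratio was 0.373 per exon length (95% counting interval 0.305 to 0.455). It was 0.734 by longest transcript, and by counts alone 0.861 with an interval that includes equality (0.704 to 1.05). The fifth gene, Ppp4r4, had no count. Summed PP4 regulatory TPM was 5.04 ± 0.796 times that of Ppp4c, and 3.29 times by longest transcript. For PP6, Ppp6r3 had 163, 142 and 148 counts (131 ± 14.6 TPM), Ppp6r1 55, 43 and 56 (85.7 ± 15.7 TPM) and Ppp6r2 16, 19 and 25 (17.4 ± 4.26 TPM). The 3 did not overlap in any library, and their sum was 2.08 ± 0.269 times the TPM of Ppp6c, and 3.28 times by longest transcript. The PP4 and PP6 ratios thus lay close together by longest transcript but apart per summed exon length. Ppp4c stood at 0.640 of Ppp6c per exon length (0.502 to 0.812), but at 1.28 per longest transcript.

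**Figure D2:**
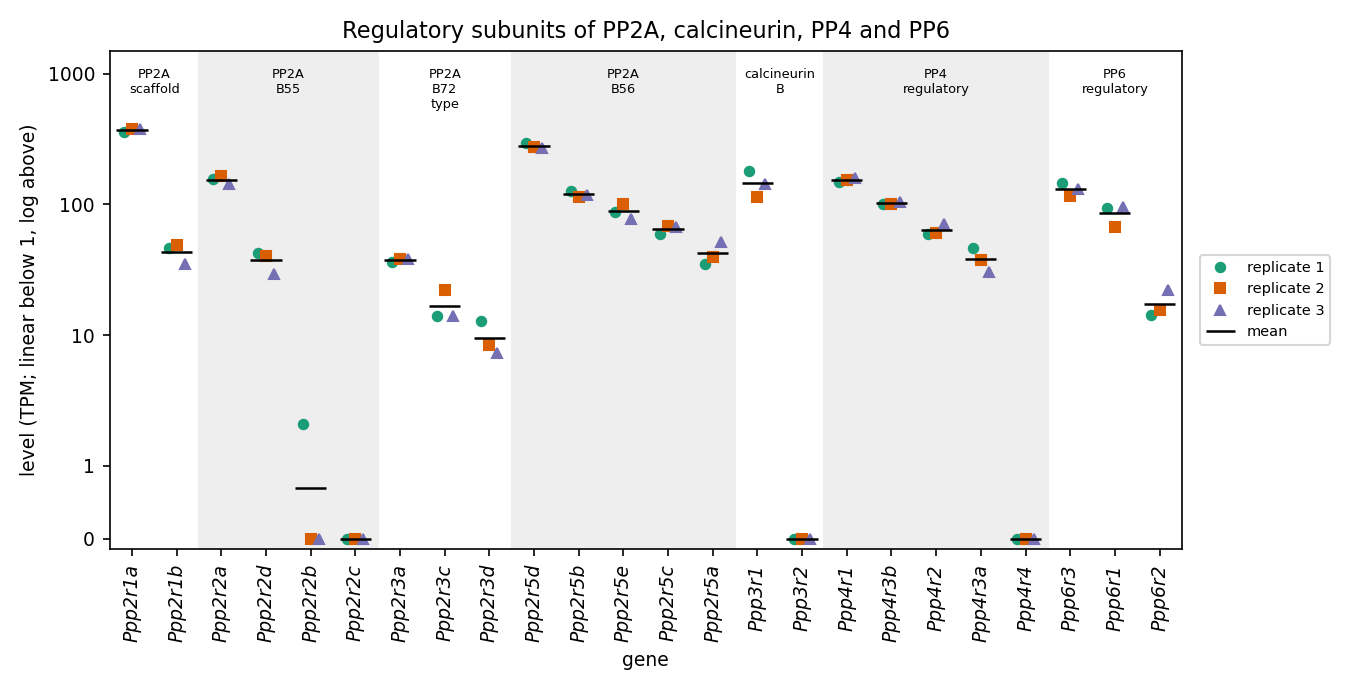
Level of the 24 genes for the regulatory subunits of PP2A, calcineurin, PP4 and PP6 in TPM (vertical axis, linear below 1 and logarithmic above) by gene. Points are the 3 libraries and bars their mean; in every class except the B72 type the highest gene lies above 100 TPM, while Ppp2r2c, Ppp3r2 and Ppp4r4 lie at 0.

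The 39 regulators of PP1 were uneven, with 1 group in which 6 of 7 genes had no count beside groups whose highest gene lay above 100 TPM. The glycogen-targeting subunits bring PP1 to glycogen particles, where it turns on glycogen synthase. Of these 7 genes 6 had no count, namely Ppp1r3a, Ppp1r3b, Ppp1r3c, Ppp1r3d, Ppp1r3f and Ppp1r3g. For Ppp1r3f the 0 is less certain, since 50.7% of its 50-base stretches also occur in other transcripts and 46.9% of its exon bases overlap exons on the same strand, chiefly of Gm36995. The seventh, Ppp1r3e, had 6, 1 and 1 counts (8.80 ± 9.71 TPM), and 6 of its 8 counts lay in replicate 1. Its mean was 6.05 CPM, and 2.16 CPM without replicate 1. Ppp1r3a, the muscle form, shows a start region with few CpG steps, 2 in the window.
Ppp1r3a, chr6:14755225-14755524, minus strand: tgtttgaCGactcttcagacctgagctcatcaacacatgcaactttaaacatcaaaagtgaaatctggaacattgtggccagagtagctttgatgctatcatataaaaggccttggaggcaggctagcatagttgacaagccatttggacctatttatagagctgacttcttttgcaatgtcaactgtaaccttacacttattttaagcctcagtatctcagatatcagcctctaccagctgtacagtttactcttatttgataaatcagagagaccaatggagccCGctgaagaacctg
Ppp4r4, also without counts, shows the opposite, with 44 CpG steps in a window of the same length.
Ppp4r4, chr12:103532315-103532614, plus strand: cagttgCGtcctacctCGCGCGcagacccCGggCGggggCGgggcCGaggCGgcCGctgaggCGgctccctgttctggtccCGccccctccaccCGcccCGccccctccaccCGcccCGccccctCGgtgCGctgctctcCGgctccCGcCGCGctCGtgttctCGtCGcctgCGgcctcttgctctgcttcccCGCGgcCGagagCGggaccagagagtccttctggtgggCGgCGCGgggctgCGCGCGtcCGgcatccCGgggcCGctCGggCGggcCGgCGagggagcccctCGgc
They are shown because genes without counts differed this widely in their start regions.

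Of the 10 inhibitors of PP1, 5 were detected, a share near the 50.6% of all protein-coding genes, so the count says nothing particular about them. Ppp1r14b, a small inhibitor of the CPI-17 family, which acts on the myosin phosphatase, was the highest with 25, 38 and 25 counts (155 ± 31.5 TPM), and 21.7% of its 50-base stretches also occur in other transcripts. Inhibitor-2, encoded by Ppp1r2, had 38, 45 and 32 counts (69.8 ± 9.07 TPM) and inhibitor-3, encoded by Ppp1r11, 18, 16 and 14 (65.8 ± 9.18 TPM). These 2 overlapped. Ppp1r1b, which encodes the cAMP-regulated inhibitor DARPP-32, had 3, 3 and 6 counts (11.2 ± 5.11 TPM). Ppp1r14a, which encodes CPI-17 itself, had 2 counts in all, and the ratio of Ppp1r14b to it was 39.4 per exon length with a wide counting interval of 10.6 to 331. Ppp1r14c had 1 count. Ppp1r1a (inhibitor-1, a cAMP-regulated inhibitor), Ppp1r1c, Ppp1r14d and Ppp1r17 had none. With 3 counts over the 3 libraries allowed for Ppp1r1a, Ppp1r1b stood at 1.78 times it per exon length. The 12 counts of Ppp1r1b were taken as they are, so its own counting error is not covered.

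The subunits that bring PP1 to actin and myosin were largely present, with 7 of 8 detected. Ppp1r12a, the main targeting subunit of the myosin phosphatase, had 108, 125 and 142 counts (127 ± 18.3 TPM). Ppp1r12c had 9, 22 and 21 counts (28.2 ± 11.2 TPM) and Ppp1r12b, known from heart and smooth muscle, 3, 1 and 6 (1.84 ± 1.42 TPM). The mean of Ppp1r12b was 7.48 CPM, and 4.496 CPM without replicate 3. Ppp1r12a stood at 70.1 times Ppp1r12b per exon length (95% counting interval 37.7 to 147) and 4.46 times Ppp1r12c (3.33 to 6.08). Ppp1r9b, which encodes the actin-binding scaffold spinophilin, had 75, 77 and 64 counts (115 ± 9.43 TPM), and its relative Ppp1r9a, or neurabin, 15, 22 and 25 (11.5 ± 2.84 TPM). Their ratio, Ppp1r9a to Ppp1r9b, was 0.1004 (0.0744 to 0.134). Ppp1r18 stood at 57.5 ± 4.29 TPM. Ppp1r16a, with 12, 19 and 24 counts, stood at 36.1 ± 12.1 TPM, while its relative Ppp1r16b, known from endothelium, had no count. With 3 counts allowed for Ppp1r16b the ratio was 39.4 per exon length, with the counting error of Ppp1r16a not covered.

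All 3 genes of nuclear targeting were detected. Ppp1r10, which holds PP1 on chromatin, had 72, 61 and 78 counts (102 ± 16.7 TPM), Ppp1r8, the nuclear inhibitor NIPP1, 18, 22 and 11 (46.9 ± 13.8 TPM), and Ppp1r7, known from yeast as Sds22, 25, 29 and 24 (20.1 ± 1.10 TPM). Ppp1r15b, which directs PP1 to the translation factor eIF2alpha, had 90, 88 and 75 counts (122 ± 11.6 TPM). The ASPP genes of this set, whose proteins bind p53, had means below the median of detected protein-coding genes (31.4 TPM). Ppp1r13l had 10, 7 and 19 counts (27.3 ± 14.9 TPM) and Ppp1r13b 6, 8 and 5 (10.3 ± 2.01 TPM). Of 8 further regulators 4 were detected, a share likewise near the 50.6% of all protein-coding genes. These 4 stood at 49.0 ± 3.31 TPM for Ppp1r21, 41.4 ± 0.945 for Ppp1r37, 35.5 ± 19.9 for Ppp1r35 and 5.78 ± 1.53 for Ppp1r26. The other 4, Ppp1r27, Ppp1r32, Ppp1r36 and Ppp1r42, had no count.

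**Figure D3:**
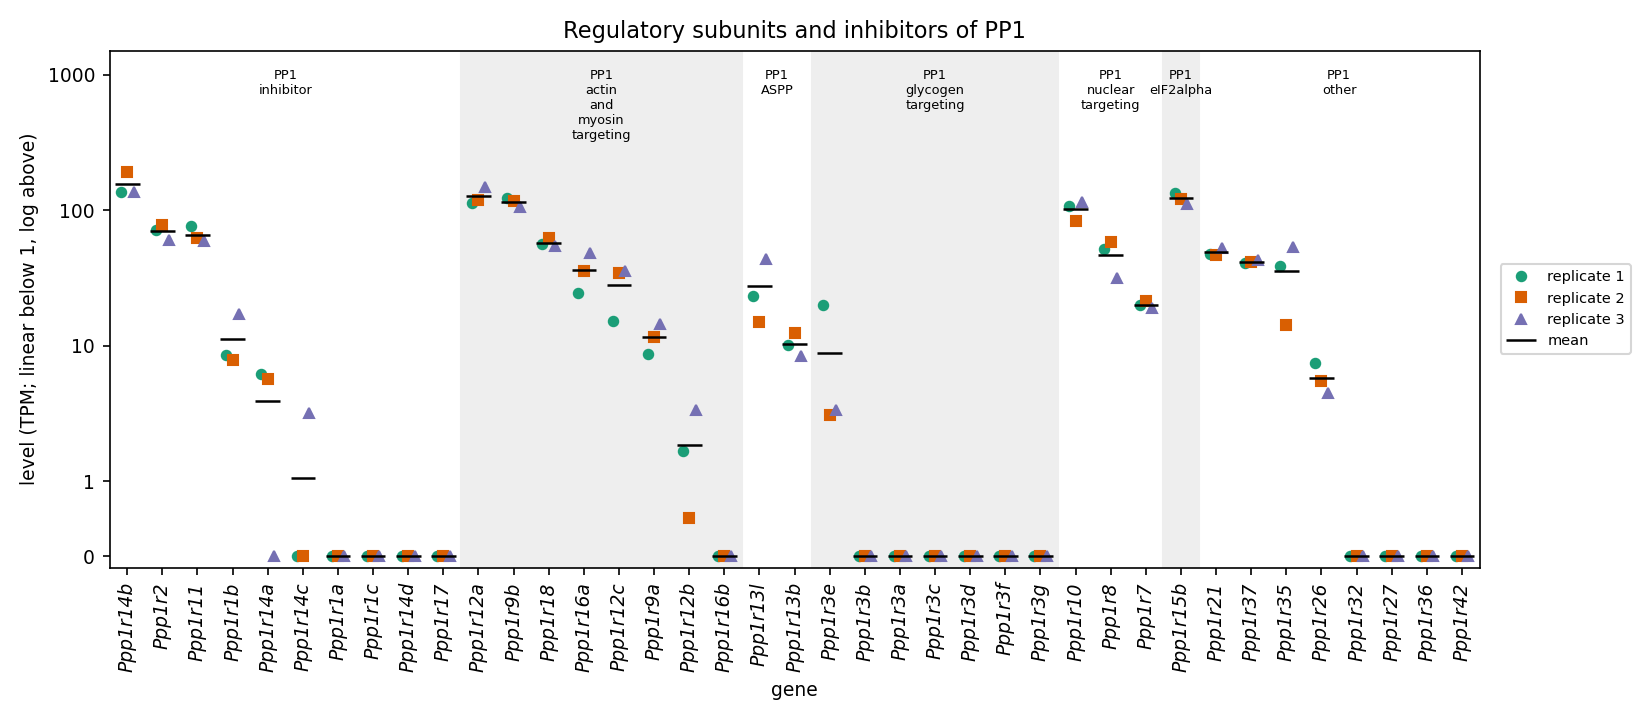
Level of the 39 regulators of PP1 in TPM (vertical axis, linear below 1 and logarithmic above) by gene and group. Points are the 3 libraries and bars their mean; the glycogen-targeting genes lie at 0 except Ppp1r3e, while the highest genes of the inhibitor, actin and myosin, nuclear and eIF2alpha groups lie above 100 TPM.

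Within the classes, 36 pairs of neighbours in the order of mean TPM had counts for both genes. Of these, 29 did not overlap between libraries and 7 did, and 2, Ppp2r5e over Ppp2r5c and Ppp1r2 over Ppp1r11, stood in the other order by longest transcript. A set of 25 pairs of related genes was also compared within each library as log2 ratios of counts plus 0.5 per exon length. Counts allowed it for 21, and 20 of these pointed the same way in all 3 libraries, the exception being Ppp2ca over Ppp2cb, which pointed one way in 2 of 3. With 3 libraries the exact sign-flip permutation test (two-sided) cannot go below p = 0.25, the value that the 20 pairs reached (adjusted p = 0.2625 over the 21), and Ppp2ca over Ppp2cb gave p = 0.75. No pair can pass a threshold of 0.05 in this design. The counting intervals pool the reads of the 3 libraries. They hold no spread between libraries and no doubt about length, so they do not replace that test.

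**Figure D4:**
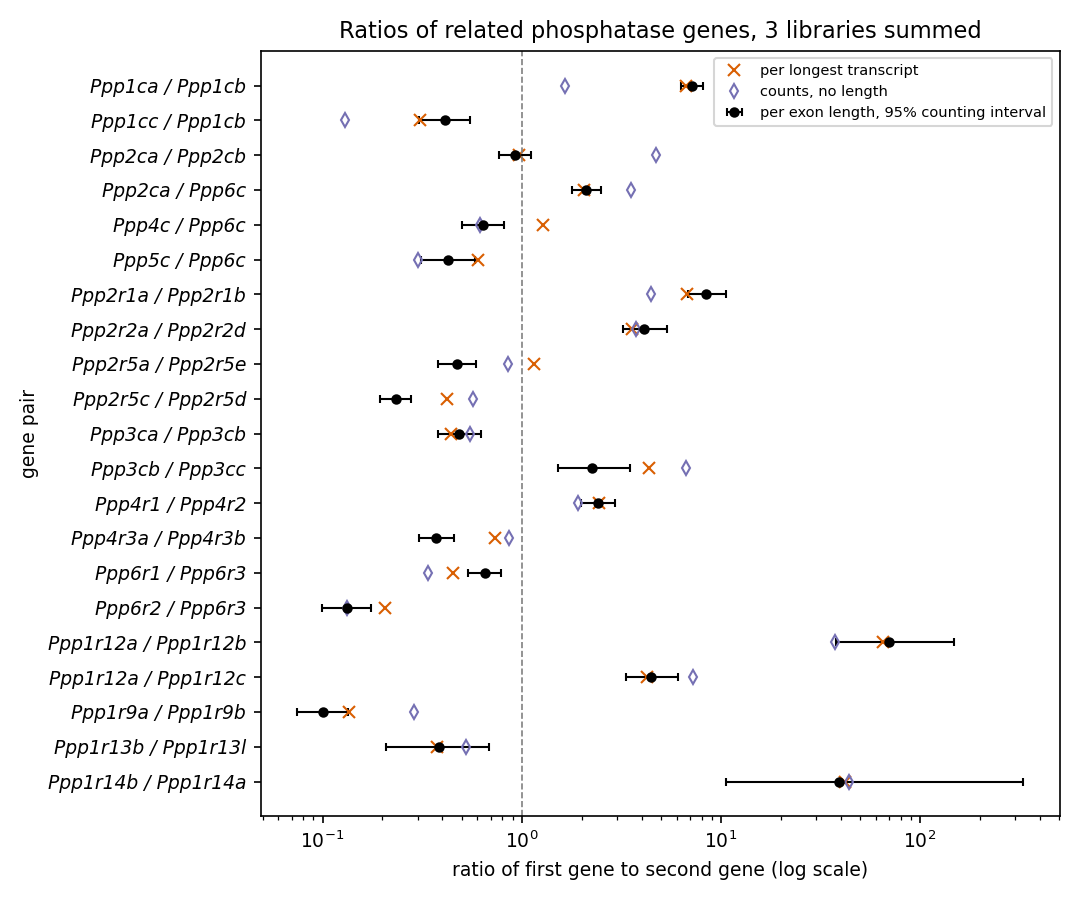
Ratio of the first to the second gene of 21 related pairs (horizontal axis, logarithmic) from counts summed over the 3 libraries. Black points are per exon length with 95% counting intervals, crosses are per longest transcript and open diamonds are counts with no length; Ppp2ca over Ppp2cb lies at 0.922 per exon length but at 4.70 by counts, and Ppp1r12a over Ppp1r12b at 70.1 is the highest.

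For every one of the 12473 detected genes of the table, a chi-square test asked whether its 3 counts followed the library sizes, and p-values were adjusted by the Benjamini-Hochberg method. None of the 54 detected phosphatase genes passed the adjusted threshold of 0.05 (lowest adjusted p = 0.836), and 0.0401% of all genes did, so a count of 0 says nothing particular about these genes. At an unadjusted p under 0.05, 6 of the 54 (11.1%) were counted by the chi-square test, against 4.89% of all genes, and 5 by an exact multinomial test, against 4.98%. The 6 were Ppp1ca (unadjusted p = 0.00362), Ppp1r13l (0.0275), Ppp2ca (0.0277), Ppp3r1 (0.0313), Ppp1r3e (0.0320) and Ppp4r3a (0.0499). Ppp1ca was highest in replicate 2, Ppp1r13l in replicate 3 and the other 4 in replicate 1. Where the mean count was 5 or more, chi-square per degree of freedom was 1.14 over 48 phosphatase genes and 1.09 over all 8983 genes, where counting error alone gives about 1. The labels do not say that the replicates came from separate cultures, so these p-values measure only the spread between the libraries, which may be technical.

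Partner proteins of the enzymes were followed as lists, at the same limit, which 50.6% of all protein-coding genes reached. All 17 PP2A partners were detected, with a median of 68.5 TPM, and the highest were Set, an inhibitor of PP2A (265, 281 and 286 counts, 553 ± 28.2 TPM), Ptpa, an activator needed to assemble it (99, 104 and 100 counts, 158 ± 3.52 TPM), and Cip2a, a further inhibitor (62, 76 and 75 counts, 101 ± 9.34 TPM). Of 15 PP1 partners 13 were detected, with a median of 53.7 TPM over the list. Mki67, a marker of dividing cells (310, 290 and 274 counts, 235 ± 19.7 TPM), Akap11 (131, 143 and 159 counts, 106 ± 11.8 TPM) and Shoc2, which holds PP1 in a complex that acts on RAF kinases (61, 74 and 64 counts, 96.2 ± 5.24 TPM), were the highest. Phactr1 and Phactr3, of a family that binds PP1 and actin, had no count. All 19 genes of the calcineurin pathway were detected, the lowest with at most 1 count in any library, and their median was 30.4 TPM. Among its highest genes were the calmodulin genes Calm2, with 124, 151 and 144 counts (771 ± 57.2 TPM), and Calm3, with 92, 133 and 106 (368 ± 52.0 TPM).

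Of 8 candidate substrates and partners of these phosphatases in the distal tubule, 6 were detected. Wnk1, the kinase at the head of the pathway that phosphorylates the cotransporters, had 336, 393 and 329 counts (125 ± 6.38 TPM). Slc12a2, the sodium, potassium and chloride cotransporter used by many cell types, had 112, 134 and 136 counts (94.5 ± 8.91 TPM), and Oxsr1, the kinase that acts on it, 40, 50 and 34 (62.4 ± 9.45 TPM). Slc12a3, the sodium chloride cotransporter, and Klhl3, which marks WNK kinases for removal, had no count.

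Start regions from RefSeq could be matched for 58 of the 74 genes, and 5 of these windows lie over 1000 bases from the annotated gene start. The ratio of observed to expected CpG was compared as a description. Detected phosphatase genes had a median ratio of 0.889 (43 genes) and those without counts 0.472 (14 genes), while all protein-coding genes had medians of 0.791 when detected and 0.233 without counts. A ratio of at least 0.6 was held by 90.7% of the detected phosphatase genes and 42.9% of those without counts, against 77.9% of all detected protein-coding genes and 16.6% of all without counts. The lowest ratio was 0.0486, in Ppp1r14d, and the highest 1.12, in Ppp6r2. 6 genes without counts held a ratio of at least 0.6, namely Ppp1r3c, Ppp1r3d, Ppp1r3f, Ppp1r36, Ppp2r2c and Ppp4r4. Among detected genes 4 lay under 0.6, namely Ppp1r9a, Ppp1r11, Ppp2r3d and Ppp2r5b.

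Ppp2ca, the second highest catalytic gene by counts, is shown for comparison, with 34 CpG steps, fewer than the 44 of Ppp4r4, which had no count.
Ppp2ca, chr11:52098574-52098873, plus strand: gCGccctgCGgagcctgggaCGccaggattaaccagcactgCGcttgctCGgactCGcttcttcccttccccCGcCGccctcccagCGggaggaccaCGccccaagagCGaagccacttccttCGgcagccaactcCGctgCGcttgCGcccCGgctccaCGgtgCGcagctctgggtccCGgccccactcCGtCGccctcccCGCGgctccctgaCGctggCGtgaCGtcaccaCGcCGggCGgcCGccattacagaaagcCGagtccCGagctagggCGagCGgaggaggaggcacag
Motifs were searched in these windows on both strands. The SP1 motif GGGCGG was found in 36 of the 43 detected phosphatase genes (83.7%), against 68.2% of all detected protein-coding genes, and in 6 of the 14 without counts (42.9%), against 23.5% of all without counts. The cAMP response element TGACGTCA, which reads the same on both strands and does not overlap GGGCGG, was found in 3 of 58 (5.17%), against 2.42% of all promoters of the same length. These were Ppp2ca, Ppp1r12c and Ppp2r2d, and all 3 were detected. Of the others, the ETS motif CCGGAAG was in 7 of 58 (12.1%, against 12.3% of all promoters), CCAAT in 19 (32.8%, against 38.8%), the TATA motif TATAAA in 5 (8.62%, against 12.9%) and the NRF1 motif in 2 (3.45%, against 1.38%). A match is no proof of a bound site.

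**Figure D5:**
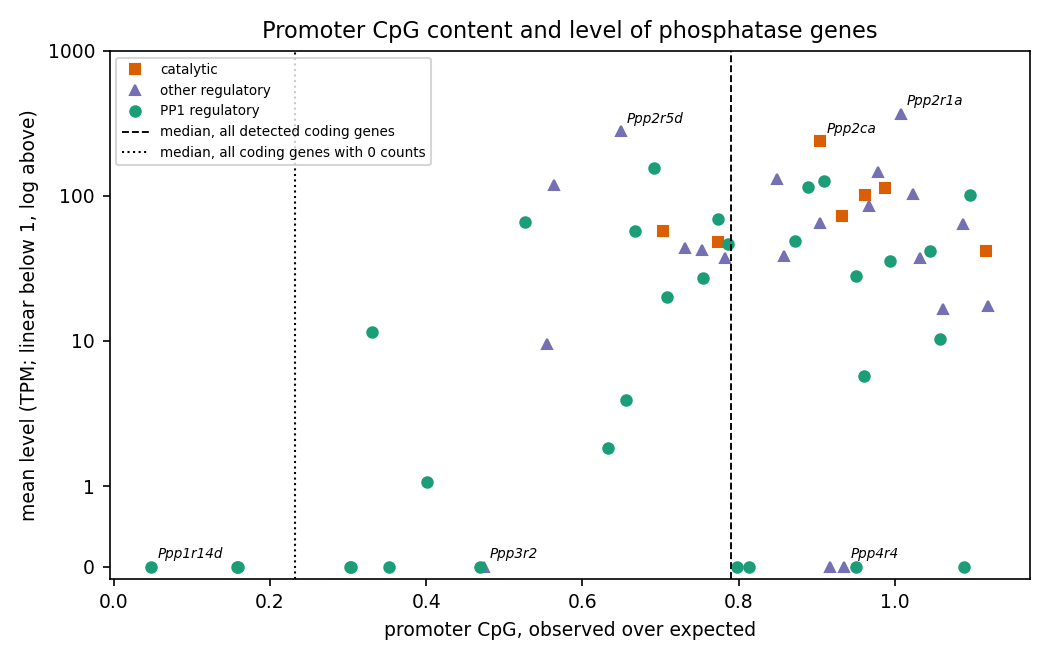
Mean level in TPM (vertical axis, linear below 1 and logarithmic above) against the observed to expected CpG ratio of the start region (horizontal axis) for 58 phosphatase genes. Marks give the kind of subunit, and the vertical lines are the medians of all detected protein-coding genes (0.791) and of all without counts (0.233); genes at 0 TPM lie at low and at high ratios.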

How the data were processed

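Per the labels' protocols, each of the 3 libraries was made from 500 ng of RNA, with ribosomal RNA removed and fragments near 300 bp. The values deposited by the authors are raw read counts per gene, as whole numbers. Per the submitters' processing notes the tools include STAR and HTSeq on mm10, with no version, setting or strand mode given in the sources used here. Columns were assigned to replicates by their numbers.

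Names, exon lengths and positions came from GENCODE M21, which matched 55227 of 55487 identifiers. Library sizes were adjusted with TMM factors from edgeR 4.0.16 (0.992, 1.00 and 1.01). TPM were computed here from exon lengths. Depth was 436983 to 482418 counts per library. Shared sequence was measured as 50-base stretches found on either strand of other transcripts, and promoter windows came from RefSeq (GRCm38.p6). Counting intervals are exact binomial (Clopper-Pearson) at 95%, and they cover counting error only. With 0 counts 3 counts were allowed, while the counts of the other gene of the pair were taken as they are. The chi-square test and the pair ratios were tested on simulated data. Python tools were scipy 1.17.1, numpy 2.4.6 and pandas 2.3.3, with DESeq2 1.42.0 for alternative size factors.

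All members may be named by the rule fixed for them, with catalytic subunits and paired genes given in each library. Of each partner list the 3 highest and the genes without counts are named. Strn, Strn3 and Strn4 are named as genes left out of the PP2A targeting-subunit shares. Wnk4, Cnnm2, Trpm6, Kcnj10, Egf, Col1a1, Pdgfrb and Pvalb are markers, and the genes sharing reads were named after their values were seen. The members, pairs and lists were chosen with earlier results of these data known. Some items that these rules take are not reported here.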

Additional observations from a re-analysis of the deposited data

How the results depend on the processing

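No paired analysis was possible because the labels give 1 group. Under DESeq2 size factors and library totals no level in CPM of a member moved by as much as 1 SD. With a replicate left out, Ppp1r3e, at 6.05 CPM, was at 2.16 CPM without replicate 1, Ppp1r12b, at 7.48 CPM, at 4.496 CPM without replicate 3, and Ppp1r14a, at 1.46 CPM, at 2.19 CPM without replicate 3. Ppp1r14c and Ppp2r2b, with 1 count each, also moved by over 1.5 times. The number of detected genes, 54, ranged from 53 to 56 over 7 alternatives, and the members called as differing between libraries stayed at 0 under all 8. The count of all genes called, 5, was 1 to 3 with a replicate left out, where 2 libraries enter the test. The 6 members at an unadjusted p under 0.05 were 3 without replicate 1 and 3 without replicate 2. By longest transcript the catalytic shares were 57.6% for PP1, 19.9% for PP2A, 8.69% for calcineurin, 6.14% for PP4 and 4.77% for PP6. With no division by length they were 43.5% for PP1, 30.6% for PP2A, 12.2% for calcineurin and 2.15% for PP5. The log2 ratio of Ppp2ca to Ppp2cb, -0.12, was 2.23 with no division by length and -0.28 to 0.0044 with a replicate left out. By longest transcript that of Ppp4c to Ppp6c, -0.64, was 0.36 and that of Ppp2r5a to Ppp2r5e, -1.08, was 0.21. The other 143 pair values kept their direction. Apart from those of the replicates left out, these shifts follow from the length used as divisor. At this depth a gene with 0 counts may have had up to 2.20 CPM, and genes with few counts, such as Ppp1r3e and Ppp1r14a, have levels known only loosely. The exact multinomial test was added after the data were seen.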

Other observations

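Serine/threonine phosphatases outside the PPP names above were also widely expressed. Of 28 such genes 25 (89.3%) were detected, against 50.6% of all protein-coding genes, with a median of 29.3 TPM over the list. The highest were Ctdnep1, a phosphatase of the nuclear envelope that acts on lipin (46, 63 and 54 counts, 201 ± 23.0 TPM), Ppm1g, a nuclear enzyme of the metal-dependent PPM family (106, 111 and 100 counts, 176 ± 5.70 TPM), and Ctdsp2, of the family that acts on the tail of RNA polymerase II (97, 99 and 77 counts, 133 ± 15.9 TPM). Ppef2, known from the retina, and Ppm1n had no count. Genes with the same name prefix that do not code for protein were nearly silent: the 12 of them held 14 counts, of which Ppp4r1l-ps, the pseudogene copy of a PP4 subunit, had 5, 4 and 4.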
